A study of Homo sapiens with 40 samples.

Results

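The D-type cyclins and their kinase partners were examined as a set of 5 genes, CCND1, CCND2, CCND3, CDK4 and CDK6, out of 19676 protein-coding genes in the GENCODE 44 annotation. They were taken as a named family, not by any measured value. All peaks within 2 kb of a start site of these genes, inside their gene bodies, or nearest to them within 100 kb were collected, together with listed enhancers and Rb regions there. This gave 20 of 51489 H3K27ac peaks, 14 of 51457 CTCF peaks and 9 listed enhancers, and 0 listed Rb regions.

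The cells were EndoC-βH3, an established line of human pancreatic beta cells of fetal origin with the genotype label WT. The cells had been immortalized with hTERT and the SV40 large T antigen, and carry a CreER recombinase that excises both when 4-hydroxytamoxifen (4-OHT) is given. The senescent group had received 4-OHT for 3 weeks, and the non-senescent group was the untreated control of the same line. ChIP-seq was done with 3 senescent and 3 non-senescent libraries for H3K27ac, an acetylation of histone H3 at active promoters and enhancers. The same numbers were used for CTCF, a zinc finger protein bound at chromatin loop anchors. For the enhancer mark H3K4me1 and for Rb, the retinoblastoma protein, there were 2 and 2 libraries. Large T antigen itself binds Rb and p53, so its excision, the 4-OHT treatment and the senescent state cannot be told apart in this design. All libraries came from a single line, and the labels do not say that replicates were separate cultures, so p-values measure the spread between these libraries, which may be technical.

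D-type cyclins are the regulatory subunits through which growth signals reach the cell cycle. Bound to CDK4 or CDK6, they phosphorylate Rb and the related pocket proteins, which releases E2F transcription factors and lets cells pass from G1 into S phase. INK4 inhibitors, among them p16 (CDKN2A), block CDK4 and CDK6, and p21 (CDKN1A) blocks CDK2 and other cyclin-dependent kinases. In beta cells, cyclin D2 and CDK4 are known for their role in postnatal expansion in the mouse, and human beta cells also use CDK6.

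In the senescent cells, the H3K27ac peak over the internal CDK6 start site fell 1.63-fold. A small peak in that gene, centred 72.3 kb from its canonical start, fell 2.66-fold. An H3K27ac peak between the 2 groups of CCND3 start sites rose 1.76-fold. The CDK4 promoter peak, the widest of the 20 and the one with the highest mean count, did not pass the test, at a fold change of 1.09 (95% interval 0.975 to 1.21). CCND1 and CCND2 had no H3K27ac peak listed in the table used here. None of the CTCF peaks of the 5 genes was called.

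The values are the authors' comparison of the 2 states, with 1 fold change, standard error and p-value per peak and no value per library, so that the libraries cannot be shown one by one. The fold changes are senescent over non-senescent on the log2 scale, n = 3 and 3 libraries, and the adjusted p-values are those of DESeq2. Mean counts are read counts divided by size factors and averaged over both states. Calls of gain or loss needed a fold change above 1.5 (0.5850 on the log2 scale) and an adjusted p-value under 0.05 for H3K27ac or 0.2 for CTCF. Of all H3K27ac peaks, 22.6% were called, 9.47% gained and 13.1% lost. Of the 39485 CTCF peaks with an adjusted p-value, 7.27% were called, 2.99% gained and 4.28% lost. Fewer cells carrying a mark and less of the mark per cell cannot be told apart in such samples. Promoter H3K27ac was listed for 13 of 13 beta-cell marker genes and for 0 of 7 markers of mesenchyme, endothelium and leukocytes. Among other islet and pancreatic markers, GCG, PRSS1, PTF1A and CFTR had no promoter peak, whereas SST (mean count 54.2), HHEX, KRT19, CPA1 and IRX2 had a peak. The promoters of SST and HHEX, markers of delta cells, and of KRT19, a marker of duct cells, fell 1.82-fold, 1.69-fold and 1.67-fold, and that of the beta-cell gene IAPP rose 1.9-fold. The other 12 beta-cell marker promoters were not called, and the list had a median log2 fold change of 0.091 with 5 of 13 below 0. The part of these changes in the results below was not tested.

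Promoter sequences were matched by symbol in a RefSeq table (build GRCh38.p14), which held entries for 3 of the 5 genes. They are shown because the internal CDK6 start lies in a peak that was lost, whereas the CDK4 and canonical CCND3 starts lie in peaks that were not called. Each is the stretch before the start on the minus strand, 5′ to 3′, without bases that belong to an exon of the gene. Capitals mark matches on either strand to an E-box (CACGTG, bound by MYC and related factors) or a GC box (GGGCGG, bound by SP1 and related factors).
CDK6 internal start, chr7:92833960-92834209: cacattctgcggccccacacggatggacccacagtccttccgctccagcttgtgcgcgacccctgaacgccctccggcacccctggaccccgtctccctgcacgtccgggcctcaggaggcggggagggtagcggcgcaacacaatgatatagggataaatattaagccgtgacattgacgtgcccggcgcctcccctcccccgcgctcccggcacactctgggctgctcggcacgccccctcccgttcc
CDK6 canonical start, chr7:92836574-92836823: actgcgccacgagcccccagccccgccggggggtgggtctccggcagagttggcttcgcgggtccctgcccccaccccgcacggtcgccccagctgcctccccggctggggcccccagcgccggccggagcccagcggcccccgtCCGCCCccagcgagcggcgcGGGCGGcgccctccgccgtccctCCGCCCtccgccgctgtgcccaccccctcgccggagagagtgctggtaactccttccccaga
CDK4, chr12:57752448-57752560: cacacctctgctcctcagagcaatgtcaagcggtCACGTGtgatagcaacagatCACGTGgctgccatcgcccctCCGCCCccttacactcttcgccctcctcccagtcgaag
CCND3 canonical start, chr6:41941809-41942058: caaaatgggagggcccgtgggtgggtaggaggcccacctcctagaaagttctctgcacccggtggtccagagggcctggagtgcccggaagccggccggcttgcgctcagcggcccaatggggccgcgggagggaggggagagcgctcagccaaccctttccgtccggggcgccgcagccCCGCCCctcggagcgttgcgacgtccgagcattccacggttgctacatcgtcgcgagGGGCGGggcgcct

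The full 300-base windows of the table, 250 bases before and 50 after each start, were searched on both strands for 6 motifs. The CDK4 window held 3 E-boxes, at 216, 196 and 101 bases before the start, the first 2 of them in the stretch printed above. An E-box occurred in 7.26% of all 35116 windows, and 3 or more in 0.094%. The window of the canonical CDK6 start held 1 E-box, 30 bases after the start, and 3 GC boxes. The window of the internal CDK6 start held none of the 6 motifs, and the CCND3 canonical window held 4 GC boxes. A GC box occurred in 45.0% of all windows. The E2F motif (TTTCCCGC, TTTGGCGC, TTTGCCGC or TTTCGCGC, found in 3.31% of windows), the AP-1 motif (TGANTCA, 7.71%), the CRE (TGACGTCA, 1.85%) and a TATA box (TATAAA, 11.5%) had 0 matches in the 6 windows of CCND3, CDK4 and CDK6. These matches are letters in a window and not bound sites.

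CDK6 lies on the minus strand of chromosome 7 (hg38, chr7:92604921-92836573, 232 kb) and encodes 1 of the 2 catalytic partners of the D-type cyclins. Its promoter peak (chr7:92832410-92834196, 1787 bp) covered the internal start site and exon 2 of the canonical transcript, with a mean count of 125. It fell by 0.71 on the log2 scale (SE 0.20, 95% interval -1.10 to -0.32, adjusted p = 0.0015). No H3K27ac peak was listed within 2 kb of the canonical start site. Promoter H3K27ac was lost at 8.94% and gained at 3.15% of the 13059 protein-coding genes with such a peak, taking the strongest peak of each gene. Over the 20 H3K27ac peaks of the 5 genes, 3 were called (15.0%), 1 gained and 2 lost, a share below that of all peaks (22.6%). None of these 3 calls passed a Wald test against a fold change of 1.5.

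Of the 11 other CDK6 peaks, 1 was lost and none was gained. The lost peak lay in intron 3 (chr7:92763977-92764476, 500 bp) with a mean count of only 26.0. It fell by 1.41 (SE 0.43, 95% interval -2.24 to -0.58, adjusted p = 0.0036), and it was the largest fall among the H3K27ac peaks of the 5 genes. When peaks under a mean of 50 counts were left out, it could not be called.

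Next to it in intron 3 lay the CDK6 peak with the highest mean count, 777 (chr7:92765243-92770383, 5141 bp). It overlapped a listed enhancer of both states. Its log2 fold change was -0.58 (SE 0.082, 95% interval -0.75 to -0.42, adjusted p = 2.43e-11), the smallest adjusted p-value of all 20 peaks. The fold change of 1.4988 lay just under the threshold of 1.5, so the peak was not called lost. It was called once the median of all peaks was subtracted (-0.591) or the trend with GC content was removed (-0.606).

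A further intron 3 peak, also in an enhancer of both states, had a mean count of 354 and a log2 fold change of -0.26 (adjusted p = 0.054). Distances in this paragraph run from the internal CDK6 start to the nearer edge of a peak. The figures use peak centres and the canonical start. All 7 H3K27ac peaks that lay nearest to a CDK6 start, from the promoter to 77.6 kb away, had log2 fold changes below 0. They ranged from -1.41 to -0.26 with a median of -0.58. Of these, 3 had an adjusted p-value under 0.05 and 4 had mean counts under 50. The 5 peaks in the far end of the gene, 193 to 224 kb from the start and nearer to FAM133B, ranged from -0.087 to 0.28, with a median of 0.071, and 0 had an adjusted p-value under 0.05. The largest of these covered exon 8 and part of intron 7, with a mean count of 608 and a log2 fold change of -0.071 (95% interval -0.27 to 0.13). The difference between the 2 ends of the gene was not tested.

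**Figure D1:**
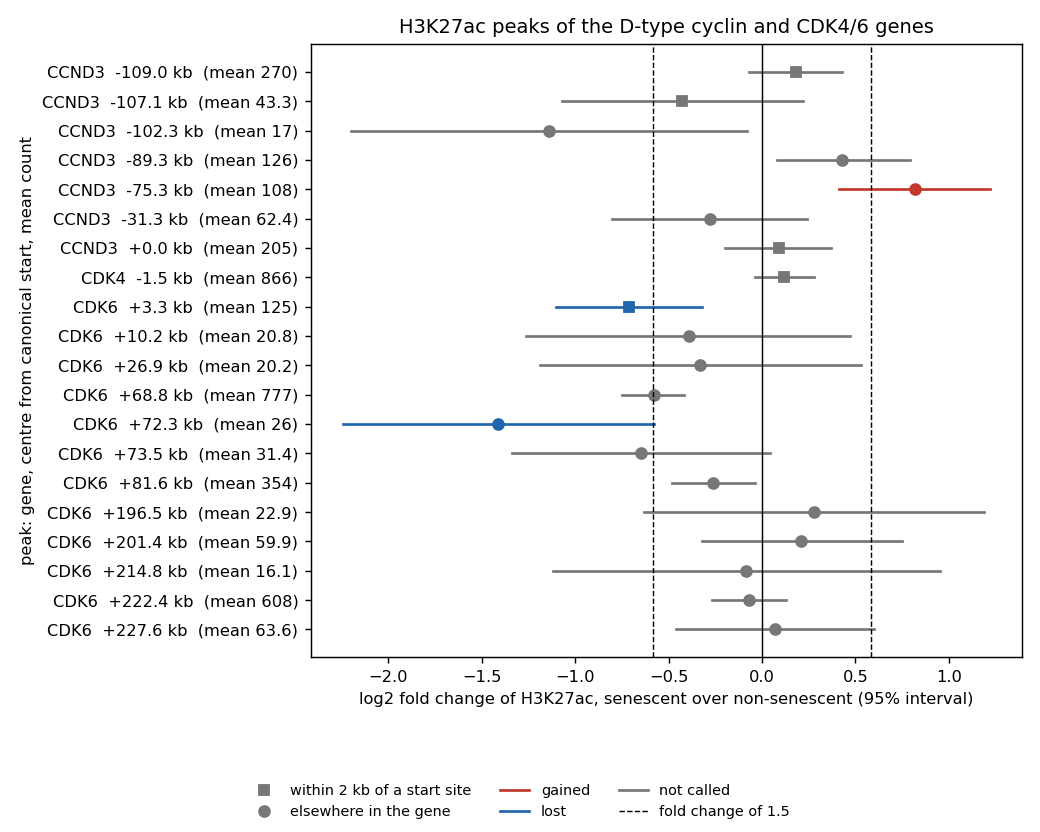
Log2 fold change of each H3K27ac peak, senescent over non-senescent, with its 95% interval from the standard error (3 and 3 libraries). Rows give the gene, the distance of the peak centre from the canonical start and the mean count. Squares lie within 2 kb of a start site, and dashed lines mark a fold change of 1.5. The 2 lost peaks are in CDK6 (-0.71 and -1.41) and the gained peak is in CCND3 (0.82). Rows with mean counts under 50 have the widest intervals.

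CCND3 encodes cyclin D3 and lies on the minus strand of chromosome 6 (chr6:41934934-42050357, 115 kb). Its protein-coding transcripts have 11 start sites, in a group around the canonical start and a distal group over 100 kb upstream. The peak over the canonical start (chr6:41940751-41942899) had a mean count of 205 and a log2 fold change of 0.089 (95% interval -0.20 to 0.37, adjusted p = 0.66). The peak over the most distal start (chr6:42049990-42051714), shared with TAF8, a subunit of the general transcription factor TFIID, had a mean count of 270 and a log2 fold change of 0.18 (95% interval -0.072 to 0.43, adjusted p = 0.27). The remaining promoter peak (chr6:42048464-42049331) had a mean count of 43.3 and a log2 fold change of -0.43 (adjusted p = 0.31). None of the 3 CCND3 promoter peaks was called.

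Between the 2 groups of starts, a peak of 1820 bp (chr6:42016227-42018046, mean count 108) rose by 0.82 (SE 0.21, 95% interval 0.41 to 1.22, adjusted p = 3.89e-04). It lay 75.3 kb upstream of the canonical start, in introns of the longer transcripts, and overlapped no exon. The overlapping enhancer (chr6:42016883-42017676, 794 bp) was in the non-senescent list alone, although the H3K27ac there was higher in the senescent cells. A neighbouring peak (chr6:42030154-42032148, mean count 126) overlapped an enhancer of both states, and its log2 fold change was 0.43 (95% interval 0.082 to 0.79, adjusted p = 0.042), under the fold threshold. The other 2 CCND3 peaks had log2 fold changes of -0.28 and -1.14, with mean counts of 62.4 and 17.0.

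The listed enhancers fell in CDK6 and CCND3 alone among the 5 genes. CDK6 held 3 of the non-senescent and 3 of the senescent list, at matching places. CCND3 held 2 of the non-senescent and 1 of the senescent list. In all, 5 H3K27ac peaks outside promoters overlapped them, and 1 was called, the gained CCND3 peak, against 34.0% of the 15849 such peaks in the series. The authors had built the lists from these same H3K27ac libraries, so membership in a list is not independent of the change.

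**Figure D2:**
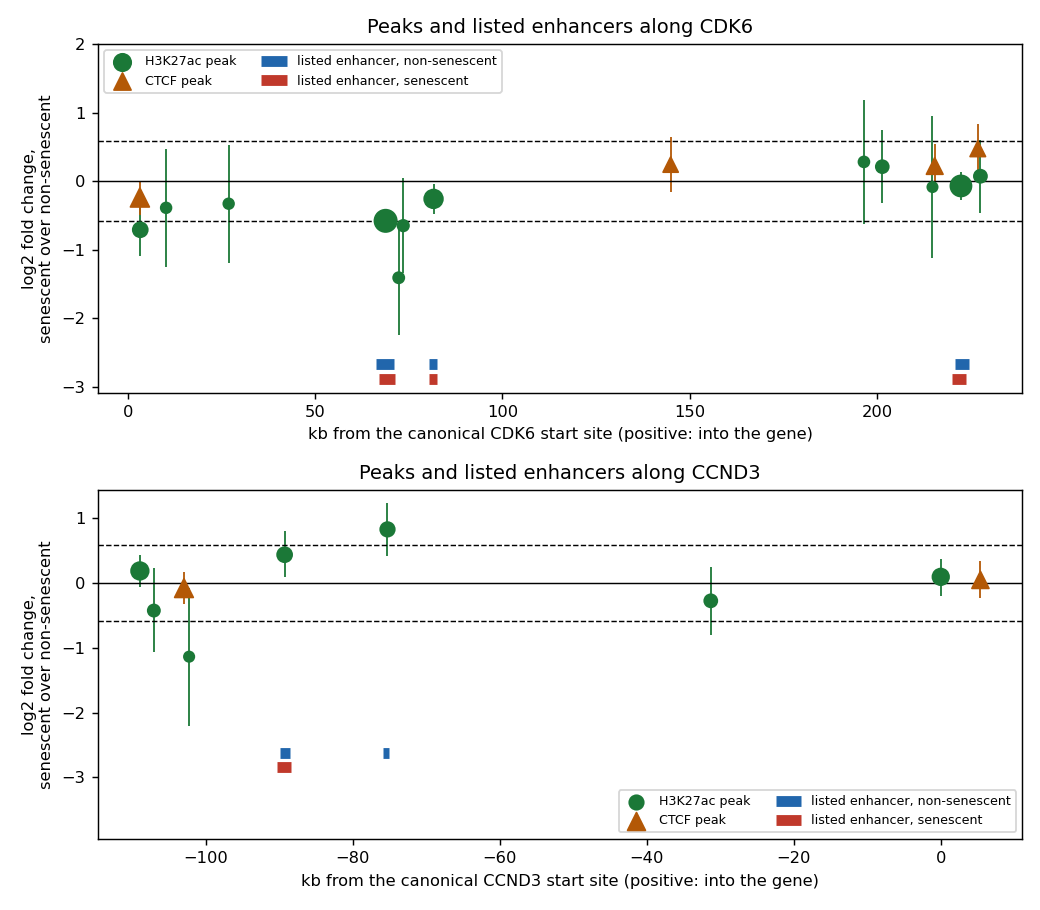
Log2 fold change of H3K27ac (circles) and CTCF (triangles, those with an adjusted p-value) along CDK6 and CCND3, against distance from the canonical start in kb. Symbol size rises with the mean count, vertical lines are 95% intervals, dashed lines a fold change of 1.5, and bars below are listed enhancers of each state. In CDK6, the 7 H3K27ac peaks up to 81.6 kb lie below 0 and the 5 from 196.5 kb on lie around 0. In CCND3, the 2 peaks over listed enhancers lie above 0.

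CDK4, the other catalytic partner, is a gene of 8.29 kb on the minus strand of chromosome 12 (chr12:57747727-57756013). A single H3K27ac peak of 5678 bp (chr12:57750966-57756643) covered its start sites and exons 1 to 4 of the canonical transcript, as well as a start site of MARCHF9, which encodes a membrane-bound ubiquitin ligase. Its mean count of 866 was above that of 88.3% of all H3K27ac peaks, and its width above that of 93.5%. Per kb, its count of 153 stood above that of 50.2% of promoter peaks, whereas the CDK6 promoter peak (70.1 per kb) stood above that of 20.3%. The CDK4 log2 fold change was 0.12 (SE 0.081, 95% interval -0.037 to 0.28, adjusted p = 0.23). Both this value and that of the CDK6 promoter peak come from the same libraries, and the difference between them was not tested. Reads of the peak cannot be divided between CDK4 and MARCHF9.

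CCND1 (chr11:69641156-69654474, plus strand) and CCND2 (chr12:4269771-4305353, plus strand) encode cyclins D1 and D2. Neither had an H3K27ac peak or a listed enhancer that met the rule. The nearest H3K27ac peaks stood 33.3 kb from the CCND1 start, at LTO1, and 46.3 kb from the CCND2 start, at TIGAR. An H3K27ac peak at the promoter was listed for 66.4% of all protein-coding genes and for 3 of the 5 genes here. A missing peak says that the authors' peak caller listed none there, and the signal beneath that level is not known.

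CTCF peaks, in contrast, were listed in all 5 genes, and 4 of the 5 had a CTCF peak within 2 kb of a start site, compared with 47.6% of protein-coding genes. Of the 14 peaks, 9 had an adjusted p-value and 0 of these was called by DESeq2 at the thresholds above. At an unadjusted p-value under 0.05 there were 4 of 14. At promoters of all genes, taking the strongest peak with an adjusted p-value, CTCF was lost at 5.49% and gained at 0.585%.

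The CTCF peak nearest to a call lay in CCND1 (chr11:69642880-69644642, mean count 273), over exons 2 and 3, and began 1674 bp downstream of a start site. Its log2 fold change was -0.53 (SE 0.16, 95% interval -0.84 to -0.21, adjusted p = 0.039), a fold change of 0.694, which is less than the threshold. The largest CCND2 peak (chr12:4276205-4278182, over exon 2, mean count 267) had a log2 fold change of 0.38 (SE 0.16, adjusted p = 0.16). The CDK6 peak in exon 8 (chr7:92608656-92610713, mean count 145) had a log2 fold change of 0.47 (SE 0.18, adjusted p = 0.13). All 3 passed the adjusted p-value of 0.2 and not the fold threshold.

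The CDK6 promoter CTCF peak (chr7:92832439-92834284) had the highest mean count of the 14, 371, and covered nearly the same bases as the H3K27ac peak that was lost. Its log2 fold change was -0.24 (SE 0.12, adjusted p = 0.27). The distal CCND3 peak (chr6:42043838-42045739, mean count 346) had a log2 fold change of -0.085 (95% interval -0.33 to 0.16, adjusted p = 0.74). The peak upstream of CDK4 (chr12:57756720-57757486) was weak, with a mean count of 34.2 and a log2 fold change of 0.20 (adjusted p = 0.79), and lay next to MARCHF9. The 2 CTCF peaks at the canonical CCND3 promoter had mean counts of 17.9 and 6.62 and no adjusted p-value, with log2 fold changes of -0.46 and -1.49. Among the 5 peaks without an adjusted p-value, mean counts ran from 3.98 to 17.9 and log2 fold changes from -1.49 to 2.92. The widest interval was that of a CCND2 peak over exon 3 with a mean count of 3.98 (0.24 to 5.60 on the log2 scale), which was also among the 4 peaks with an unadjusted p-value under 0.05.

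**Figure D3:**
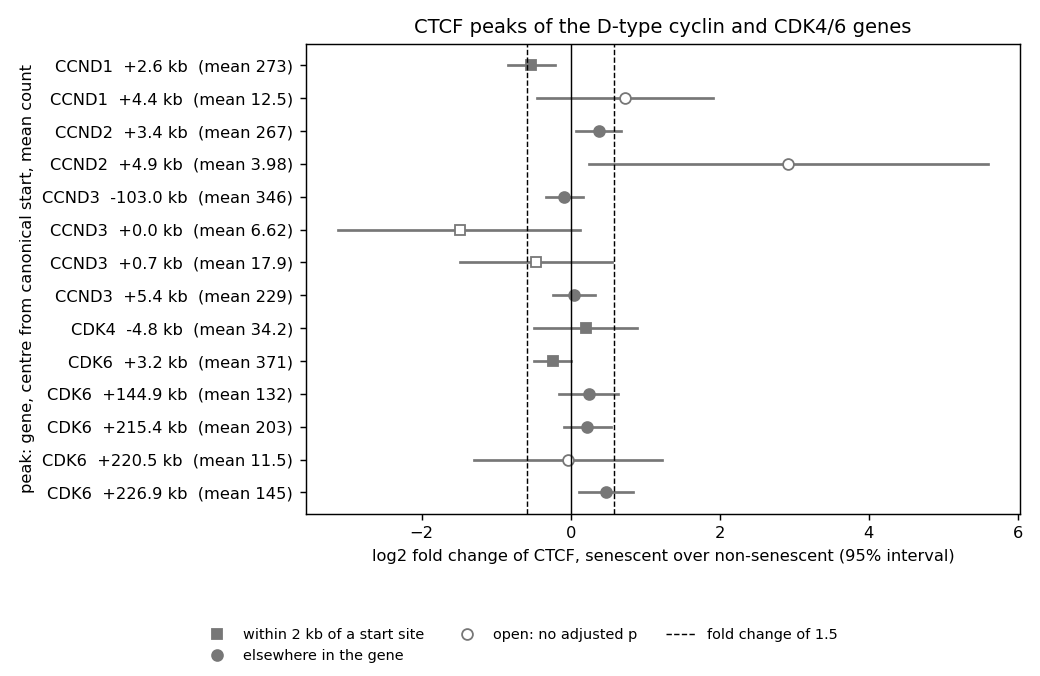
Log2 fold change of each CTCF peak, senescent over non-senescent, with its 95% interval (3 and 3 libraries). Open symbols have no adjusted p-value, squares lie within 2 kb of a start site, and dashed lines mark a fold change of 1.5. None of the 14 was called, and the 9 with an adjusted p-value lie between -0.53 and 0.47.

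The sequence at these peaks was compared with a CTCF matrix of 20 bases, built after the data had been seen from the 5000 CTCF peaks with the highest mean count. A score of 9.65 (log2 odds), which 10% of regions shifted by 10 kb passed, was passed by 65.4% of all CTCF peaks and by 10 of the 14 here. The best sites of the CDK4, CDK6 and CCND3 peaks that passed and had mean counts above 30 are shown, with the 12 bases of the core in capitals and read on the strand given, from hg38.
CDK6 promoter, exon 2, chr7:92833132-92833151, minus: ccatCCGCGAGGTGGCggtg
CDK6 intron 4, chr7:92691703-92691722, plus: agagCCAGCAGAGGGAgtaa
CDK6 exon 8, chr7:92610084-92610103, minus: tattCCACAAGGTGGCactt
CCND3 distal, chr6:42044388-42044407, minus: tcgtCCACCAGGTGGAgctg
CCND3 intron 4, chr6:41936480-41936499, minus: gcctCCAGTAGAGGGAaacc
CDK4 upstream, chr12:57756918-57756937, plus: tcttCCTCCAGGGGGAgctc

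The distal CCND3 site scored 18.15, above 85.9% of all CTCF peaks, and the CDK6 promoter site 14.69, above 66.5%. Mean counts of these peaks stood above those of 93.1% and 94.4% of all CTCF peaks. Both were thus among the peaks that built the matrix, and their scores are not independent of it. Each score is the highest in its peak, and both peaks were wide, above 93.4% and 92.3% of all CTCF peaks. The sites lay 391 and 220 bp from the peak centres. The site in the largest CCND2 peak scored 18.94, above 88.8%, and that in the CCND1 peak with the change nearest to a call 12.66. A CDK6 peak in intron 6 (chr7:92620357-92621941) had a mean count of 203 but scored only 4.61, under the threshold. A score describes letters and does not show where CTCF was bound.

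No listed region of senescence-specific Rb binding met the rule at any of the 5 genes. An Rb region lay within 2 kb of a start site of 308 protein-coding genes, 1.57% of them. The nearest to CDK4 was 94 bp wide (chr12:57742923-57743016), in TSPAN31, 4.71 kb past the end of the gene. For the other 4 genes the nearest region was 1372 to 1673 kb away. The list gives positions alone, so bound levels cannot be compared.

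To place the 5 genes in their pathway, the strongest promoter H3K27ac peak was taken for 50 genes in 5 lists, of which 46 had a peak. In the senescent cells, 14 of the 46 were lost and 3 gained, and their median log2 fold change was -0.14. The median of all 14007 promoter peaks was 0.0326. That set also holds the weaker peaks of each gene, so the medians are of unlike sets. Over all genes with such a peak, 8.94% were lost and 3.15% gained, and the counts below are to be read against these shares. The later cyclins and kinases, which act from the G1/S transition to mitosis, fell in 6 of the 6 genes with a peak, whereas CCNE1 and CCNA1 had none. CCNA2, the S-phase cyclin A2, fell 3.24-fold, CDK1, the mitotic kinase, 2.71-fold, CCNB1, a mitotic cyclin, 2.52-fold, and CCNE2, a cyclin of the G1/S transition, 2.44-fold (adjusted p from 3.74e-32 to 1.32e-26). The median of this list was -1.31. CDK2, the partner of cyclins E and A, fell 1.61-fold (adjusted p = 8.18e-04), close to the CDK6 value of 1.63-fold.

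Of the 13 pocket protein and E2F genes, 5 fell, 1 rose and 7 did not pass, beside 8.94% lost and 3.15% gained over all genes. E2F8 and E2F7, atypical repressor E2Fs, fell 5.25-fold and 1.71-fold, and E2F2, an activator, fell 3.84-fold at a low mean count of 34.9. RBL1, the pocket protein p107, fell 2.19-fold, whereas RBL2, the pocket protein p130, rose 1.71-fold (adjusted p = 3.62e-15). E2F1 fell 1.51-fold, just past the threshold. RB1, the main substrate of cyclin D kinases, had a log2 fold change of -0.15 (SE 0.069, adjusted p = 0.078).

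Of the 7 inhibitors, 2 rose and 1 fell. CDKN1A (p21) rose 5.66-fold (log2 fold change 2.50, SE 0.16, adjusted p = 5.09e-54), and CDKN1C (p57) rose 1.51-fold, just past the threshold. CDKN2D (p19), an inhibitor of CDK4 and CDK6, fell 2.21-fold. CDKN2A encodes the CDK4 and CDK6 inhibitor p16 from its canonical start and p14ARF, a regulator of p53, from an upstream start. The peak over the canonical start (chr9:21973049-21977216, mean count 953) had a log2 fold change of 0.25 (SE 0.094, adjusted p = 0.023). The stronger peak over the upstream starts (chr9:21989862-21997537, mean count 2941) had a log2 fold change of -0.16 (SE 0.066, adjusted p = 0.049). Neither passed the fold threshold.

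Of the 10 genes that activate, fold or degrade cyclin D and its kinases, CDC25A, a phosphatase that activates cyclin-dependent kinases, fell 1.61-fold, and the other 9 were not called. Of the 10 upstream genes with a peak, FOXM1, a cell-cycle transcription factor, fell 1.54-fold and the other 9 were not called at their strongest peak, although a weaker promoter peak of TCF7L2 was. MYC and STAT5A had no promoter H3K27ac peak. At the strongest CTCF promoter peak, 0 of 30 genes of the 5 lists was called by DESeq2, of which 24 had an adjusted p-value, beside 5.49% lost and 0.585% gained over all genes. At an unadjusted p-value under 0.05 there were 5 of 30.

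**Figure D4:**
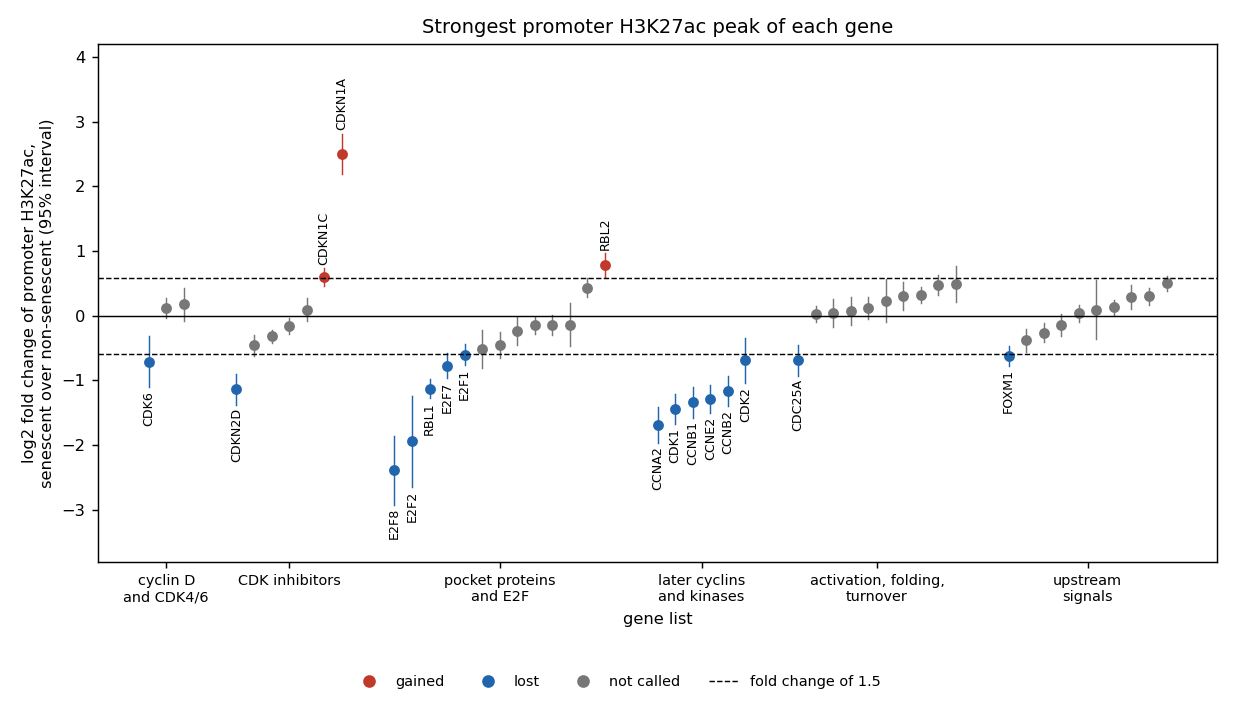
Log2 fold change of the strongest promoter H3K27ac peak of each gene, senescent over non-senescent, with its 95% interval, by gene list. Red points were gained and blue lost, grey points were not called, and dashed lines mark a fold change of 1.5. CDK6 lies among the lost promoters at -0.71, CDK4 and CCND3 at 0.12 and 0.18, and CDKN1A at 2.50. The CCND3 point is the distal peak shared with TAF8, and the peak over the canonical CCND3 start had 0.089. The CDK4 peak is shared with MARCHF9. CCND1 and CCND2 have no point because they had no promoter peak.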

How the data were processed

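ChIP-seq had been carried out on 40 libraries, inputs included, and the labels gave the antibody and state of each. Per the study's methods, the authors aligned reads to hg38 with Bowtie2, called peaks with HOMER for H3K27ac and with MACS2 for CTCF, and compared reads in peaks between states with DESeq2. The methods also state that only CTCF peaks holding a CTCF motif were kept. No motif filter was applied here, so the CTCF shares given above cover all listed peaks. Tool versions are not given in the sources used here. The deposited signal is a mean of size-factor normalized counts over libraries. The deposited log2 fold change, its error, the Wald score and the p-value with its adjusted value are the authors' own and were used as given, since the tables hold no counts per library. A planned test on counts was therefore not run. Enhancer and Rb lists hold positions. The depth of each library is not known from these tables, and precision is carried by the standard error. Because size factors centre the typical peak at no change, a rise or fall of a mark throughout the genome is not visible.

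Peaks were assigned to genes with GENCODE 44 and overlapped by at least 1 bp (Python 3, numpy and pandas, with scipy for intervals). All 24 chromosome names matched hg38. Promoter sequences came from RefSeq (GRCh38.p14), CTCF sites from hg38. The deposited adjusted p-values cover all H3K27ac peaks and the 39485 CTCF peaks that have one, and were missing for 11972 CTCF peaks. Recomputed Wald tests for the alternatives were tested on simulated data. Named were every promoter peak of the 5 genes, all called peaks and the one with the highest mean count. Of the pathway genes, the called promoters with the largest change were named, at most 4 a list, and CDKN1A, CDKN2A and RB1. Further peaks and pathway genes were named after their values were seen. The 5 genes and the lists were chosen with earlier results of these data known.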

Additional observations from a re-analysis of the deposited data

How the results depend on the processing

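The 3 called H3K27ac peaks of the 5 genes became 1 at a fold change above 2, and 0 in a Wald test against a fold change of 1.5. They became 4 with the GC trend removed or centring, and 2 with a mean of at least 50 counts. The 1 called promoter became 0 at a fold change above 2 and in the Wald test against 1.5. So did the 1 called peak in a listed enhancer. That last count became 2 with the GC trend removed or fold changes centred on the median of all peaks, through the CDK6 intron 3 peak, and 0 where at least 0.5 of the peak had to lie inside the enhancer. The CTCF counts at the 5 genes were 0 under every alternative run: a fold change above 2, an adjusted p under 0.05, the Wald test against 1.5, p-values adjusted over all peaks, a mean of at least 50 counts, GC trend, centring, a 50 kb limit, start sites of any gene type and a 1 kb promoter window. With any promoter peak in place of the strongest, CTCF was called at 1 pathway gene, CDKN1C, instead of 0, and H3K27ac at 18 instead of 17, through TCF7L2. The alternatives were also run on 18 single peaks of the 5 genes. For each gene and mark, these were every promoter peak and, of the others, those called and the one with the highest mean count. None of the 18 changed direction, but some changed in size. Other peaks named in the text, and the pathway and neighbouring promoters, were not run one by one. With the GC trend removed, the CCND1 CTCF peak nearest to a call went from -0.528 to -0.219. The CDK6 promoter CTCF peak went from -0.243 to -0.0251, and the CDK4 CTCF peak rose from 0.201 to 0.323. The median of all H3K27ac peaks was 0.0075 and that of all CTCF peaks -0.0121 on the log2 scale. For CTCF peaks at promoters of all genes the median was -0.1722. No paired analysis was possible because the tables hold no values per library, and for the same reason no library could be left out in turn. Peaks with mean counts under 50 had wide intervals, which limits what can be said of the small CDK6 and CCND3 peaks.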

Other observations

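2 neighbouring promoters that are not among the 5 genes gained H3K27ac in the senescent cells. They were chosen after their values were seen, and neither was put through the alternatives above. Over all protein-coding genes with a promoter peak, 3.15% gained H3K27ac at the strongest one. The TSPAN31 peak had a mean count under 50, and the TIGAR rise lay just past the fold threshold. The TSPAN31 peak (chr12:57744240-57745533), past the end of CDK4, had a mean count of 45.9 and rose 3.83-fold (log2 fold change 1.94, SE 0.33, DESeq2 adjusted p = 4.34e-08). TSPAN31 encodes a tetraspanin. The TIGAR peak (chr12:4320027-4322414), beyond the end of CCND2, had a mean count of 425 and rose 1.51-fold (log2 fold change 0.60, SE 0.11, DESeq2 adjusted p = 3.19e-07). TIGAR, a regulator of glycolysis, is a known target of p53. The LTO1 peak next to CCND1 had a log2 fold change of 0.11 (SE 0.18, DESeq2 adjusted p = 0.67), and that of FAM133B next to CDK6 had 0.20 (SE 0.10, DESeq2 adjusted p = 0.10).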
